A study of Mus musculus with 13 samples.

Results

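Axon guidance genes encode the secreted or membrane-bound cues of growing axons and the receptors that read them. They were taken as every gene in the value table whose symbol belongs to the semaphorins of classes 3 to 7, the plexins, the ephrins of both classes, the EphA and EphB receptors, Slit1 to Slit3 or the Unc5 genes, together with Nrp1, Nrp2, Robo1, Robo2, Ntn1, Dcc and Neo1. This gave 58 of the 15437 genes measured, each by 1 probe set: 19 semaphorins, 7 plexins, 2 neuropilins, 7 ephrins, 12 Eph receptors, 3 Slits, Robo1, Ntn1 and 6 genes filed under the netrin receptors. One of those 6, Unc50, shares only the first letters of its name with the Unc5 receptors and is no netrin receptor. The rule uses symbols and no measured values. The RNA came from sciatic nerve of BKS mice aged 24 weeks, with 7 arrays from db/+ mice (101, 103, 104, 105, 106, 404 and 407) and 6 from db/db mice (110, 111, 112, 409, 410 and 411). All mice carry the db mutation of the leptin receptor gene on the BKS strain, db/+ mice on one chromosome as the lean control and db/db mice on both as the obese, diabetic model. The comparison asked which transcripts differ in nerve between the genotypes. The labels number the samples but do not say that each is a separate animal, so the p-values measure the spread between these samples.

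Semaphorins, ephrins, Slits and netrins steer axons by attraction or repulsion. Semaphorins act through plexins, with neuropilins as co-receptors for most of the secreted class 3 members. Ephrins are tethered to the cell surface and bind Eph receptor tyrosine kinases on the neighbouring cell. Slits bind Robo receptors, and netrin binds Dcc, neogenin and the Unc5 receptors. In peripheral nerve these molecules are made by Schwann cells, fibroblasts, vessels and axons and take part in nerve development, regeneration and vascular growth.

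The db/+ arrays were described as a set of 4 (101, 103, 104 and 106) and a set of 3 (105, 404 and 407). That division was made from the level of neuronal transcripts in earlier results on the same arrays, so no test was run between these sets, and they are described by their values. The mean of 18 measured neuron markers was 10.66 to 11.34 on the log2 scale in the 4 arrays, 6.95 to 7.55 in the 3 arrays and 6.12 to 6.80 in db/db. Schwann cell and myelin markers (9 genes) had means of 10.75 to 11.37 in the 4 arrays, 10.20 to 10.90 in the 3 arrays and 9.24 to 10.62 in db/db. The means of these markers of the labelled tissue were thus high on every array, but lower in db/db for many of the genes. Over all arrays 6 of the 9 fell at an adjusted p below 0.05 (limma), where 11.7% of all genes did. Their median difference, db/db minus db/+, was -1.07. Without the 4 arrays 0 passed, with a median difference of -0.67. The mean of the adipocyte markers (9 genes) was higher on every db/db array, at 12.98 to 13.07, than in the 4 arrays (11.72 to 12.59) or the 3 arrays (12.30 to 12.67). Singly, 6 of the 9 rose and 0 fell over all arrays (limma), where 13.4% of all genes rose. Without the 4 arrays 3 rose and 0 fell, where 6.12% of all genes rose. The mean of the fibroblast markers (8 genes) stood at 12.85 to 12.93 in the 3 arrays, above the 12.30 to 12.50 of the 4 arrays and the 12.05 to 12.50 of db/db. The difference between the 3' and 5' actin control probe sets, a sign of RNA quality, was 0.96 to 1.40 in the 4 arrays, 0.40 to 1.14 in the 3 arrays and 0.485 to 0.916 in db/db. In whole nerve, fewer cells of a type and less RNA per cell cannot be told apart, and the part of these cell mixtures and of RNA quality in the results that follow was not tested.

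**Figure D1:**
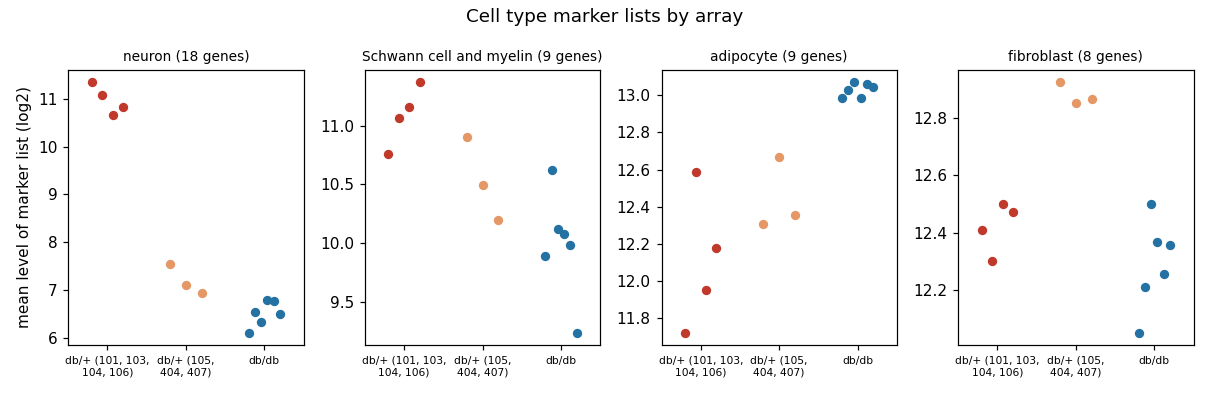
Mean log2 level (vertical axis) of 4 marker lists on each of the 13 arrays, 1 point per array, for 2 sets of db/+ arrays and for db/db (horizontal axis). The neuron mean lies above 10.6 in db/+ 101, 103, 104 and 106 and below 7.6 on the other 9 arrays.

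The guidance genes that passed the test were mostly lower in db/db nerve. Over all arrays 15 of the 58 members (25.9%) fell and 2 (3.45%) rose, among 17 called members (29.3%), at an adjusted p below 0.05 (limma, Benjamini-Hochberg over all 15437 genes). Among all genes 25.1% were called, 11.7% lower and 13.4% higher, so the share of members called lay near the background, while the share called lower was more than the background and the share called higher was less. The median difference, db/db minus db/+, was -0.21 over the members and 0.02 over all genes on the log2 scale. By role, 9 of 30 ligands fell and 0 rose, and 6 of the 27 receptors other than Unc50 fell and 1 rose. Only 4 members, Sema3b, Sema3e, Epha4 and Unc5c, had all 6 db/db levels below all 7 db/+ levels, and 0 had them all above. Such separation was found in 3.51% of all genes for lower and 6.17% for higher levels.

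Against db/+ 105, 404 and 407 alone, 7 members (12.1%) fell and 1 rose, among 13.8% called (limma, 3 against 6 arrays). All genes gave 12.9% called, 6.78% lower and 6.12% higher. The median difference was -0.23 over the members and -0.05 over all genes. Both fits share 9 arrays. Sema3b, Sema3e, Epha4 and Ntn1 passed in each, 13 members passed over all arrays only, and Sema3d, Sema4a, Sema5b and Plxna2 passed only without the 4 arrays. The 2 fits differ in how many db/+ arrays they hold as well as in which. Of the 13 members, Unc5b and Unc50, which rose, had about the same difference in each, such as Unc5b at 0.33 in both. All the others had a smaller difference without the 4 arrays, such as Sema4f at -2.35 and -0.49 and Robo1 at -1.18 and -0.61. The part of number and choice of arrays in the lost calls was not tested. In arrays 101 to 112 (5 db/+ and 3 db/db) 13 members (22.4%) passed, 12 lower and 1 higher, where 18.5% of all genes did, 8.67% lower and 9.85% higher. In arrays 404 to 411 (2 db/+ and 3 db/db) 3 members (5.17%) passed, namely Sema3a and Sema3e, which fell, and Plxna2, which rose, where 9.1% of all genes did, 4.17% lower and 4.93% higher.

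**Figure D2:**
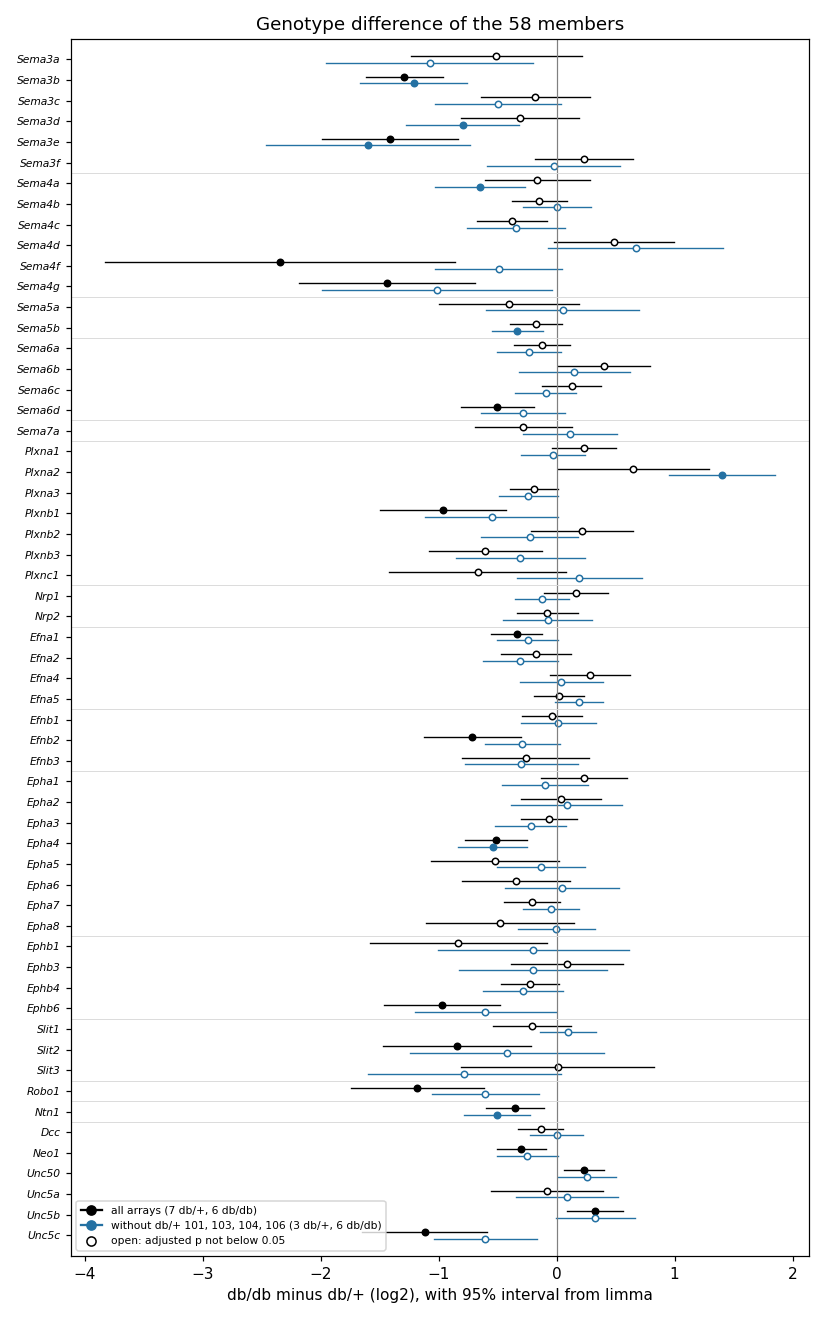
Difference in log2 level, db/db minus db/+ (horizontal axis), for the 58 members (vertical axis), with 95% intervals from limma, over all arrays in black and without db/+ 101, 103, 104 and 106 in blue. Filled points had an adjusted p below 0.05; Sema3b and Sema3e lie below 0 in both fits, and Sema4f moves from -2.35 to -0.49.

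Promoters are shown for Sema3e and Epha4, which fell in each fit, and for Plxna2, which rose against the 3 db/+ arrays. They were taken from RefSeq (GRCm38.p6). The 250 bases before the annotated start are printed 5′ to 3′ on the gene's strand, from chr5:14025026-14025275 (plus strand) for Sema3e, chr1:77515089-77515338 (minus strand) for Epha4 and chr1:194619579-194619828 (plus strand) for Plxna2. Capitals mark matches, on either strand, to the GC box GGGCGG, the TATA box TATAAA, the CCAAT box CCAAT or the E-box CACGTG. Letters shared by overlapping matches are in capitals once.
Sema3e: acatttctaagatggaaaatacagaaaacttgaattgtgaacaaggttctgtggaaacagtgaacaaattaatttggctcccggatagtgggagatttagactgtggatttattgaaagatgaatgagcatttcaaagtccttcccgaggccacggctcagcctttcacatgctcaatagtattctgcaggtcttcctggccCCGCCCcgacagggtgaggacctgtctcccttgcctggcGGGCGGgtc
Epha4: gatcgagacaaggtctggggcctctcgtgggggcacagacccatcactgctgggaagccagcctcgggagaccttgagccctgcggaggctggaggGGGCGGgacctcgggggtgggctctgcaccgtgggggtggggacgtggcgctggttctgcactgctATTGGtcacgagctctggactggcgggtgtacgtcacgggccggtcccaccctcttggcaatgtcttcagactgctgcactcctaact
Plxna2: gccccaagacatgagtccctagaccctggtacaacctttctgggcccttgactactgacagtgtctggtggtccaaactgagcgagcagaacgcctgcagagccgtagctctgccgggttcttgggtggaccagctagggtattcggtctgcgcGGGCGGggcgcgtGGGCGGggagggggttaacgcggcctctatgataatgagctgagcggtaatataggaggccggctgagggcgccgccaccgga
The Sema3e window held 2 GC boxes in 48% G and C, the Epha4 window 1 GC box and 1 CCAAT box in 66%, and the Plxna2 window 2 GC boxes in 62.8%. None of the 3 windows held a TATA box or an E-box in these letters. Entries existed for 50 of the 58 members, with 63 starts, and 74.6% of these windows held a GC box against 32.7% of all 32851 windows of this length. The TATA box was in 3.17% of the member windows and 12.4% of all, the CCAAT box in 28.6% and 33.8%, and the E-box in 4.76% and 6.02%. These matches are descriptions of letters and no evidence of binding.

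Secreted class 3 semaphorins repel or attract axons and also act on vessels. Of 6 measured, 2 fell over all arrays and 3 without the 4 db/+ arrays, and 0 rose in either fit. Sema3b, a ligand that signals through neuropilins, stood at 10.98, 11.15, 11.45 and 11.45 in db/+ 101, 103, 104 and 106, at 11.31, 11.19 and 10.85 in db/+ 105, 404 and 407, and between 9.39 and 10.28 with a median of 9.998 in db/db. The 2 sets of db/+ arrays overlapped, and every db/db array lay below them. Sema3b was 11.20 ± 0.23 (SD, n = 7) in db/+ and 9.90 ± 0.33 (SD, n = 6) in db/db. It fell by 1.29 ± 0.15 (SE) on the log2 scale, 2.45-fold (limma, adjusted p = 9.88e-05). Without the 4 arrays it fell by 1.21 (limma, adjusted p = 0.00555), and leaving out any 1 array did not end the call (highest adjusted p = 0.000376). In arrays 404 to 411 alone the difference was -1.15 and missed the threshold (limma, adjusted p = 0.0647).

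Sema3e, a repellent ligand of vessels and axons that binds plexin D1 directly, was 7.99, 8.27, 8.27 and 8.11 in the 4 db/+ arrays, 8.28, 8.41 and 8.77 in the 3, and between 5.46 and 7.39 with a median of 7.15 in db/db. The groups did not overlap, and db/db 110 was the lowest array by a wide margin. Sema3e fell by 1.41 ± 0.27 (SE) on the log2 scale, 2.67-fold (limma, adjusted p = 0.00263), with a difference of -1.60 without the 4 arrays (adjusted p = 0.0259). It was the one member that was called lower over all arrays, without the 4 arrays, in arrays 101 to 112 (-1.60, limma adjusted p = 0.0278) and in those numbered 404 to 411 (-1.40, limma adjusted p = 0.0151). Plxnd1 and Robo2 were not analysed here.

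Sema3d and Sema3a did not pass over all arrays. Sema3d was 5.28, 5.24, 5.66 and 5.67 in the 4 db/+ arrays, 6.31, 6.60 and 6.03 in the 3, and 5.10 to 5.95 in db/db. The 3 arrays lay above all others, and the 4 arrays lay within the db/db range. Over all arrays the difference was -0.31 (limma, adjusted p = 0.343), and against the 3 arrays Sema3d fell by 0.80 (adjusted p = 0.0387). The chemorepellent of sensory axons, Sema3a, was 6.15 to 6.86 in the 4 arrays, 6.69, 7.96 and 7.73 in the 3, and 5.56 to 7.15 in db/db. Its difference of -0.51 did not pass (limma, adjusted p = 0.286), with a 95% interval of -1.24 to 0.21. With the number series (101 to 112 and 404 to 411) as a block it was -0.76 and passed (adjusted p = 0.00497). Fibroblast marker means were, like Sema3d, highest in the 3 arrays. For Sema3c the difference was -0.18 and for Sema3f 0.23, and neither passed (limma, adjusted p = 0.57 and 0.403).

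Membrane-bound semaphorins of classes 4 to 7 signal through plexins of the B, A and C classes, and in part act as receptors themselves. Of 13 measured, Sema4f, Sema4g and Sema6d fell over all arrays and 0 rose. Sema4f, a transmembrane class 4 member, was 9.78, 8.99, 8.49 and 8.53 in the 4 db/+ arrays. The 3 db/+ arrays had 5.53, 5.84 and 5.73, and its range was 4.54 to 5.83 with a median of 5.22 in db/db. The 4 arrays stood above the other 9, and the 3 db/+ arrays overlapped with db/db. The SD of Sema4f was accordingly 1.79 (n = 7) in db/+ and 0.43 (n = 6) in db/db. It fell by 2.35 ± 0.69 (SE) over all arrays (limma, adjusted p = 0.0261), the greatest difference among the members. Without the 4 arrays the difference was -0.49 (adjusted p = 0.216), and leaving out db/+ 103, 104 or 106 or db/db 112 alone ended the call (highest adjusted p = 0.053). The neuron marker means were likewise highest in the 4 arrays, which was built in, as the arrays were divided by neuronal transcripts. A link to Sema4f was not tested.

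Sema4g was 9.08, 9.76, 9.85 and 10.17 in the 4 db/+ arrays, 9.32, 9.27 and 8.34 in the 3, and 6.89 to 9.25 with a median of 7.90 in db/db. Only db/db 111, at 9.25, reached the db/+ range. Sema4g fell by 1.44 ± 0.35 (SE) (limma, adjusted p = 0.00995), and the difference without the 4 arrays was -1.02 (adjusted p = 0.16). Sema6d, a ligand of class A plexins, fell by 0.50 ± 0.14 (SE), from 6.29 ± 0.32 (SD, n = 7) to 5.79 ± 0.16 (SD, n = 6), with an adjusted p of 0.0231 (limma). Without the 4 arrays its difference was -0.29 (adjusted p = 0.28), and leaving out db/db 409 or db/db 411 ended the call (highest adjusted p = 0.0529).

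Sema4a and Sema5b fell only against the 3 db/+ arrays. Sema4a, a semaphorin of immune cells and vessels, was 9.96, 9.98, 9.98 and 10.18 in the 4 db/+ arrays, 10.80, 10.75 and 11.07 in the 3, and 9.79 to 10.50 in db/db. The 4 arrays lay inside the db/db range and the 3 arrays above it. Sema4a fell by 0.65 against the 3 arrays (limma, adjusted p = 0.0358), and the difference over all arrays was -0.16 (adjusted p = 0.595). Sema5b lay between 5.36 and 5.91 on all 13 arrays and fell by 0.33 against the 3 arrays (limma, adjusted p = 0.0494). Sema4d, which binds plexin B1, stood at 0.48 above db/+ with a 95% interval of -0.02 to 0.99 and did not pass (limma, adjusted p = 0.148). The differences of the other uncalled members, Sema4b, Sema4c, Sema5a, Sema6a, Sema6b, Sema6c and the lipid-anchored Sema7a, ran from -0.40 (Sema5a) to 0.40 (Sema6b). Sema4c missed the threshold at -0.38 (limma, adjusted p = 0.0577) and passed when db/+ 407 or db/db 111 was left out, and Sema6b passed without db/+ 407 (lowest adjusted p = 0.0168 and 0.0204).

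**Figure D3:**
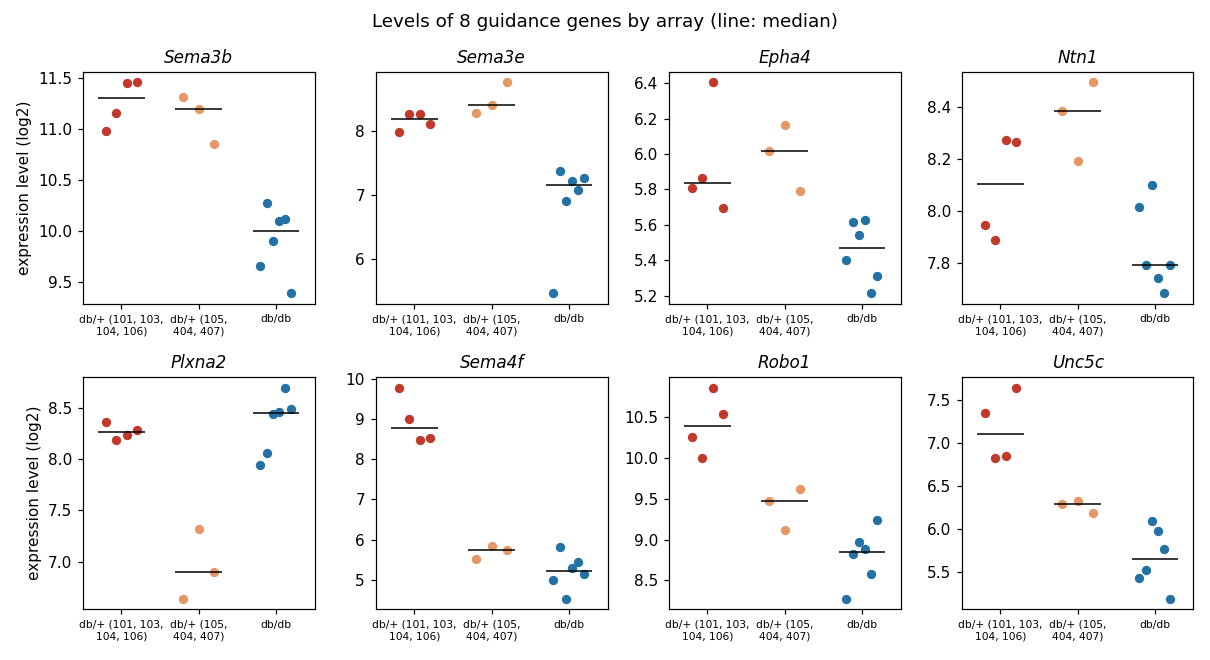
Log2 level (vertical axis) of 8 members on each array, 1 point per array with a line at the median, for 2 sets of db/+ arrays and for db/db (horizontal axis). Sema3b, Sema3e and Epha4 are lower on every db/db array; Plxna2 is low only in db/+ 105, 404 and 407; Sema4f, Robo1 and Unc5c are highest in db/+ 101, 103, 104 and 106.

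Plexins carry a cytoplasmic domain that switches off small GTPases when a semaphorin binds, and neuropilins bind class 3 semaphorins at the surface. Of 9 receptors of this kind, Plxnb1 fell and 0 rose over all arrays. Plxnb1, the receptor of Sema4d, was 8.702, 8.64, 9.44 and 9.29 in the 4 db/+ arrays, 8.31, 8.49 and 8.07 in the 3, and 7.06 to 8.09 with a median of 7.96 in db/db. The 4 arrays lay above the other 9, and the 3 arrays met the upper end of db/db. Plxnb1 fell by 0.97 ± 0.25 (SE) (limma, adjusted p = 0.0137), and without the 4 arrays the difference was -0.55 (adjusted p = 0.186).

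Plxna2, a receptor of class 6 semaphorins and partner of neuropilins, had an order of its own. It was 8.37, 8.19, 8.24 and 8.29 in the 4 db/+ arrays, 6.64, 7.32 and 6.90 in the 3, and 7.95 to 8.702 with a median of 8.46 in db/db. The 3 arrays lay below the other 10, and the 4 arrays fell inside the db/db range. Against the 3 arrays Plxna2 rose by 1.40, 2.65-fold (limma, adjusted p = 0.00277), and within the arrays numbered 404 to 411 by 1.45 (adjusted p = 0.0169). Over all arrays the difference was 0.65 with a 95% interval of 0.01 to 1.29 and did not pass (adjusted p = 0.126), and in arrays 101 to 112 it was 0.21 (adjusted p = 0.743).

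Nrp1, a co-receptor of Sema3a and of vascular growth factor, was 10.15 to 10.31 in the 4 arrays, 10.60 to 10.92 in the 3 and 10.54 to 10.75 in db/db. Only the 4 arrays stood apart, below the rest, and the difference over all arrays was 0.16 (95% interval -0.11 to 0.43; limma, adjusted p = 0.359). Nrp2 overlapped in all sets, with a difference of -0.08 (95% interval -0.34 to 0.18; adjusted p = 0.66). Plxna1 and Plxnb2 were likewise lowest in the 4 arrays, at 5.94 to 6.07 against 6.22 to 6.69 elsewhere and at 10.66 to 10.73 against 11.03 to 11.81. Plxnc1, the receptor of Sema7a, was highest there, at 7.13 to 7.70 against 5.43 to 6.5. None of the 3 passed over all arrays (limma, adjusted p = 0.195, 0.453 and 0.175). The differences of Plxna3 and Plxnb3 were -0.19 and -0.61 (adjusted p = 0.153 and 0.0611), and Plxnb3 passed when db/+ 407 or db/db 111 was left out (lowest adjusted p = 0.0155).

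Ephrin-As are tied to the membrane by a lipid anchor and ephrin-Bs span it. Of 7 measured ephrins Efna1 and Efnb2 fell over all arrays, 0 rose, and 0 passed against the 3 db/+ arrays. Efnb2, the ephrin of arterial endothelium, was 8.24, 8.22, 8.76 and 8.50 in the 4 db/+ arrays, 7.82, 7.52 and 7.72 in the 3, and 7.10 to 7.59 with a median of 7.46 in db/db. The 4 arrays were above the other 9, and of the 3 arrays db/+ 404 lay inside the db/db range. Efnb2 fell by 0.72 ± 0.19 (SE) over all arrays (limma, adjusted p = 0.0163). Without the 4 arrays the difference was -0.29 and did not pass (adjusted p = 0.213), although it did on the same 9 arrays when the number series entered as a block (adjusted p = 0.034). Endothelial markers (9 measured) had means of 9.48 to 9.71, 9.29 to 9.78 and 9.45 to 9.70 in the 4 arrays, the 3 arrays and db/db. Singly, 3 of the 9 rose and 1 fell over all arrays (limma), where 13.4% of all genes rose and 11.7% fell. A link to Efnb2 was not tested.

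Efna1, an endothelial and inflammation-responsive ephrin, was 8.44, 8.04, 8.05 and 8.06 in the 4 db/+ arrays, 7.84, 8.08 and 8.03 in the 3, and 7.48 to 7.94 in db/db. It fell by 0.34 ± 0.10 (SE) (limma, adjusted p = 0.0267), and the call was lost without db/db 411 (adjusted p = 0.0621). The other ephrins did not pass in either fit. Their differences over all arrays ran from -0.26 (Efnb3) to 0.28 (Efna4), with Efna2 at -0.18, Efna5 at 0.02 and Efnb1 at -0.04. Their 95% intervals reached from -0.80 at the lowest (Efnb3) to 0.62 at the highest (Efna4).

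Eph receptors signal in both directions between touching cells. Of 12 measured, Epha4 and Ephb6 fell over all arrays, 0 rose, and Epha4 alone passed against the 3 db/+ arrays. Epha4, which binds ephrins of both classes, was 5.81, 5.86, 6.40 and 5.70 in the 4 db/+ arrays, 6.02, 6.17 and 5.79 in the 3, and 5.21 to 5.62 with a median of 5.47 in db/db. The sets of db/+ arrays overlapped and every db/db array lay below them. Epha4 fell by 0.51 ± 0.12 (SE), 1.43-fold (limma, adjusted p = 0.00958), and by 0.54 without the 4 arrays (adjusted p = 0.0266). Its mean level lay below 6.29, the 25th percentile of all genes, and the values carry no detection calls. The same limit holds for Sema6d, Unc5b and Unc5c, and for Sema3d and Sema5b, which passed only against the 3 arrays. In arrays 101 to 112 and in arrays 404 to 411 taken alone Epha4 did not pass, at -0.44 and -0.60 (limma, adjusted p = 0.0993 and 0.116).

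Ephb6, a receptor without kinase activity, was 8.16, 8.21, 8.597 and 8.50 in the 4 db/+ arrays, 8.08, 7.84 and 7.24 in the 3, and 6.61 to 7.78 with a median of 7.15 in db/db. Among the 3 arrays only db/+ 407 lay inside the db/db range. Ephb6 fell by 0.97 ± 0.23 (SE) (limma, adjusted p = 0.00842), with a difference of -0.61 without the 4 arrays (adjusted p = 0.171). Ephb1 had a difference of -0.83 that did not pass (95% interval -1.58 to -0.085; adjusted p = 0.0951), but passed when db/+ 404 or db/+ 407 was left out (lowest adjusted p = 0.035). Ephb4, the venous partner of ephrin-B2, stood at -0.23 (95% interval -0.47 to 0.02; adjusted p = 0.158) and Ephb3 at 0.09 (adjusted p = 0.803).

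Epha1 was lowest in the 4 arrays, at 5.83 to 6.27 against 6.35 to 6.95 elsewhere, and did not pass over all arrays (limma, adjusted p = 0.335). The remaining EphA receptors had mean levels below the 25th percentile of all genes. Epha5 was 4.87 and 5.50 in db/+ 101 and 103 and 3.53 to 4.33 on the other 11 arrays. Epha8 was 6.38 and 6.76 in db/+ 104 and 106 and 4.72 to 5.29 on the other 11. Each of these 2 genes was thus high in a different pair of the 4 arrays, and neither passed (limma, adjusted p = 0.144 and 0.242). Epha2, Epha3, Epha6 and Epha7 had differences between -0.35 (Epha6) and 0.04 (Epha2) and did not pass.

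Slits are large secreted ligands of Robo receptors. Of the 3 Slits and Robo1, Slit2 and Robo1 fell over all arrays and neither passed against the 3 db/+ arrays. Robo1 was 10.25, 9.997, 10.85 and 10.53 in the 4 db/+ arrays, 9.47, 9.11 and 9.61 in the 3, and 8.28 to 9.23 with a median of 8.85 in db/db. The sets lay in steps, with the 4 arrays above the rest and db/+ 404 alone inside the db/db range. Robo1 fell by 1.18 ± 0.26 (SE) over all arrays, 2.27-fold (limma, adjusted p = 0.00647). Without the 4 arrays the difference was -0.61 with a 95% interval of -1.06 to -0.15 and an adjusted p of 0.0838. Robo1 kept its call when any 1 array was left out (highest adjusted p = 0.0168).

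Slit2 was 11.999, 12.18, 12.43 and 12.39 in the 4 db/+ arrays, 12.18, 11.40 and 10.92 in the 3, and 10.17 to 11.90 with a median of 11.04 in db/db. It fell by 0.85 ± 0.29 (SE) at an adjusted p of 0.0496 (limma), and the call was lost when any 1 of 10 arrays was left out, all but db/+ 404, db/+ 407 and db/db 111 (highest adjusted p = 0.106). Slit3 ran against Slit2. It was 9.39, 10.16, 9.57 and 9.80 in the 4 db/+ arrays, 10.65, 11.22 and 11.49 in the 3, and 9.33 to 10.94 in db/db. Its difference was 0.01 over all arrays (95% interval -0.81 to 0.83; limma, adjusted p = 0.992) and -0.79 against the 3 arrays (95% interval -1.60 to 0.03; adjusted p = 0.193). Slit1 was highest in the 4 arrays, at 6.46 to 7.13 against 6.08 to 6.46 elsewhere, with a gap of less than 0.01 between the sets, and did not pass (adjusted p = 0.346).

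Netrin-1 attracts axons through Dcc and repels them through Unc5 receptors. Ntn1, Neo1 and Unc5c fell over all arrays, and Unc5b and Unc50 rose. Ntn1 was 7.95, 7.89, 8.27 and 8.26 in the 4 db/+ arrays, 8.38, 8.19 and 8.50 in the 3, and 7.68 to 8.10 with a median of 7.79 in db/db. The 3 arrays lay above db/db, and db/+ 101 and 103 lay inside its range. Ntn1 fell by 0.35 ± 0.11 (SE) (limma, adjusted p = 0.0381) and by 0.50 without the 4 arrays (adjusted p = 0.0288). Over all arrays its call was lost when any 1 of 8 arrays was left out, namely db/+ 104, 105, 106 or 407 or db/db 111, 409, 410 or 411 (highest adjusted p = 0.0809). It was also lost with the exact rank-sum test, median centring, renewed quantile normalization, and an intensity trend with robust moderation. In arrays 101 to 112 and in arrays 404 to 411 alone Ntn1 did not pass, at -0.18 and -0.61 (limma, adjusted p = 0.417 and 0.0549).

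Unc5c, a repulsive netrin receptor, was 7.36, 6.83, 6.86 and 7.65 in the 4 db/+ arrays, 6.30, 6.33 and 6.19 in the 3, and 5.19 to 6.09 with a median of 5.65 in db/db. The sets formed 3 steps without overlap, as the 3 db/+ arrays lay between the others. Unc5c fell by 1.12 ± 0.25 (SE), 2.17-fold (limma, adjusted p = 0.00604), and the difference of -0.61 without the 4 arrays did not pass (95% interval -1.04 to -0.17; adjusted p = 0.0727). Neuron marker means had the same 3 steps, but the db/+ arrays were divided by neuronal transcripts, so the step between their sets was built in. A link to Unc5c was not tested.

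Neo1, a receptor of netrin and of repulsive guidance molecules, fell by 0.30 ± 0.10 (SE), from 10.48 ± 0.19 (SD, n = 7) to 10.18 ± 0.11 (SD, n = 6), with a limma adjusted p of 0.0381. The call was lost when any 1 of 9 arrays was left out, all but db/+ 101, 103 and 407 and db/db 410 (highest adjusted p = 0.0821), and the difference without the 4 arrays was -0.25 (adjusted p = 0.195). Unc5b, the Unc5 receptor of vessels, rose by 0.33 ± 0.11 (SE), from 5.58 ± 0.19 (SD, n = 7) to 5.91 ± 0.19 (SD, n = 6), with an adjusted p of 0.0473 (limma). The call was lost when any 1 of 11 arrays was left out, all but db/+ 404 and db/db 410 (highest adjusted p = 0.101). Unc50 rose by 0.23 ± 0.08 (SE) with an adjusted p of 0.0444, lost when any 1 of 11 arrays was left out, all but db/+ 105 and db/db 409 (highest adjusted p = 0.0907). Without the 4 arrays Unc5b stood at 0.33 and Unc50 at 0.26, differences no smaller than over all arrays, and neither passed (limma, adjusted p = 0.187 and 0.161). Dcc lay between 3.94 and 4.42 on all arrays, with a difference of -0.14 (adjusted p = 0.277), and Unc5a had a difference of -0.08 (95% interval -0.56 to 0.39; adjusted p = 0.812).

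Across families, the 4 db/+ arrays lay wholly above the other 9 in 8 members (13.8%): Sema4f, Plxnb1, Plxnc1, Efnb2, Ephb6, Slit1, Robo1 and Unc5c. They lay wholly below in 4 members (6.90%): Plxna1, Plxnb2, Nrp1 and Epha1. Among all genes the shares were 8.45% above and 8.13% below. Of the 8 members on top, 6 fell over all arrays and 0 passed without the 4 arrays. All 4 members at the bottom were receptors, of which 27 were measured besides Unc50. Their differences between db/db and db/+, 0.16 to 0.23, did not pass and were below 0 without the 4 arrays. Both groups of members were picked by where the 4 arrays lay. Leaving those arrays out therefore moves the differences by construction, and no conclusion is drawn from these changes. Against the 3 db/+ arrays, db/db lay wholly below in 8 members (13.8%), Sema3b, Sema3d, Sema3e, Sema4a, Sema5b, Epha4, Ntn1 and Unc5c, and wholly above in Plxna2. For all genes these shares were 9.99% below and 8.98% above. Of the 8, 6 were ligands and 5 of these were semaphorins, where 30 of the 58 members were ligands and 19 were semaphorins. These splits were not tested.

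**Figure D4:**
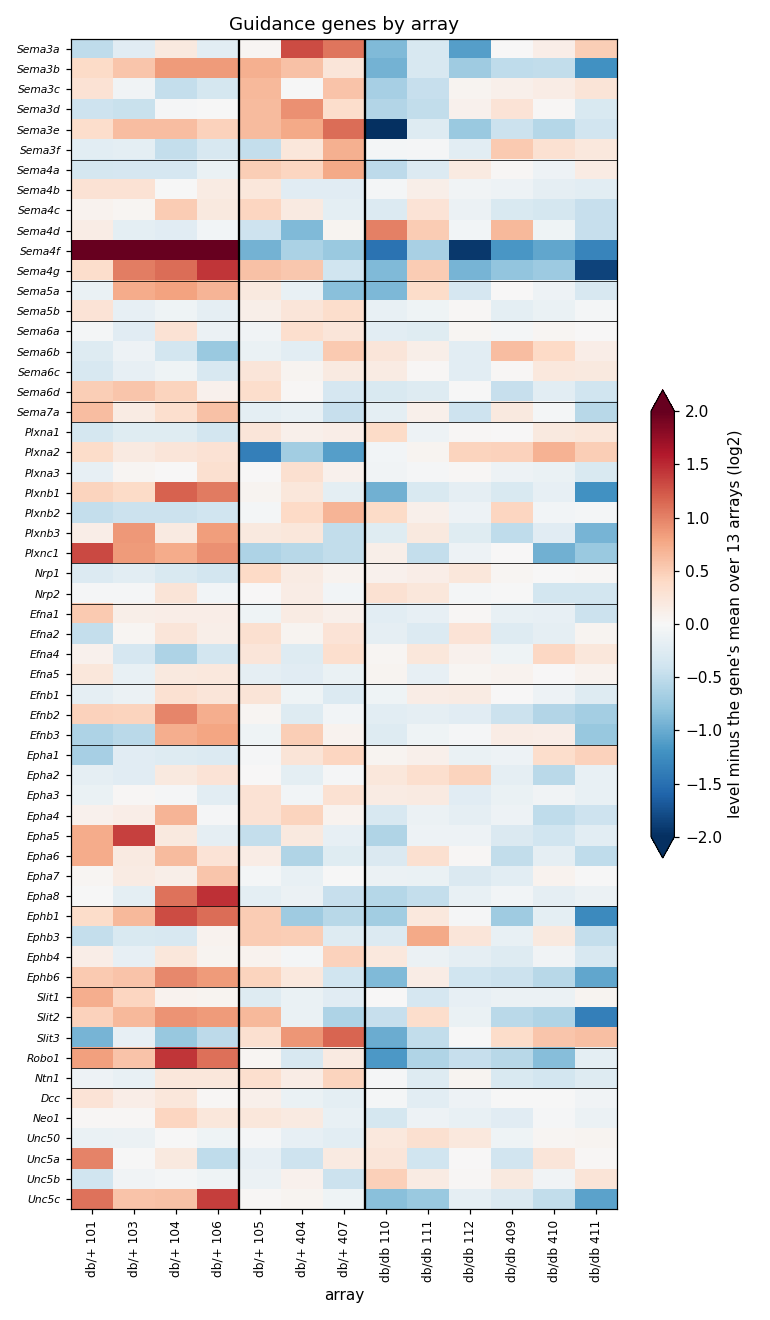
Log2 level of each member (rows, grouped by family) on each array (columns) minus that gene's mean over the 13 arrays, with colours held at -2 and 2. Sema4f, Plxnc1, Robo1 and Unc5c are highest in the first 4 columns (db/+ 101, 103, 104 and 106), and Sema3b and Sema3e are low in the 6 db/db columns.

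Within db/db, arrays 110, 111 and 112 did not overlap with arrays 409, 410 and 411 in 14 members. In 9 of them the first 3 arrays were higher (Sema4b, Sema4c, Plxna3, Nrp1, Efnb2, Epha2, Slit2, Ntn1 and Unc50) and in 5 lower (Sema3a, Sema3c, Sema3f, Plxna2 and Slit3). All genes gave 13.1% higher and 19.4% lower. Slit3 was 9.33 to 10.32 in the first 3 and 10.70 to 10.94 in the others, and Sema3a 5.56 to 6.34 and 6.67 to 7.15. The labels do not state what the number series mark. The genotype difference itself differed between the number series in 0 members and in 0 of all genes at an adjusted p below 0.05 (limma interaction term), where 7 members and 2360 genes had an unadjusted p below 0.05.

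Further genes of guidance signalling act inside the cell, at its surface or as secreted cues. Over all arrays most of their lists held some genes that fell and some that rose. The counts are to be read against the shares among all genes. Over all arrays these were 25.1% called, 11.7% lower and 13.4% higher. Without the 4 arrays they were 12.9% called, 6.78% lower and 6.12% higher. Of 31 measured genes of semaphorin signalling 9 fell and 4 rose, with a median of -0.12, and 4 fell and 2 rose without the 4 arrays. Mical1, an actin-oxidising enzyme below plexins, fell by 0.82 ± 0.09 (SE) and the kinase gene Fyn by 0.69 ± 0.09, and both also fell without the 4 arrays (limma, adjusted p = 0.00536 and 0.00381). Trem2, a myeloid receptor reported to partner with plexin A1, rose by 2.17 ± 0.35 (SE) and by 1.61 without the 4 arrays (adjusted p = 0.0173). It is also a macrophage gene, and the means of 8 macrophage markers were 10.88 to 11.08 in the 4 arrays, 11.09 to 11.92 in the 3 and 11.19 to 11.83 in db/db. Of 26 genes of ephrin signalling 5 fell and 2 rose, with a median of -0.02, and 1 fell and 0 rose without the 4 arrays. The scaffold gene Itsn1 fell by 0.66 ± 0.11 (SE), Chn1, which encodes a Rac-inactivating protein below EphA4, fell by 0.96 ± 0.22, and Vav3, an exchange factor, rose by 0.83 ± 0.17. Against the 3 db/+ arrays Itsn1 fell by 0.67 (limma, adjusted p = 0.0268), while Chn1 at -0.43 and Vav3 at 0.77 did not pass (adjusted p = 0.088 and 0.0504).

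Of 19 genes of Slit and Robo signalling 2 fell and 4 rose, with a median of -0.04, and 1 fell and 2 rose without the 4 arrays. Robo4, the endothelial Robo, rose by 0.45 ± 0.10 (SE) over all arrays and by 0.43 without the 4 arrays (limma, adjusted p = 0.0064 and 0.0352), whereas Robo1 fell. The proteoglycan genes Gpc1 and Sdc4 rose by 0.41 ± 0.10 and 0.34 ± 0.09 (SE). Gpc1 also rose without the 4 arrays, by 0.50 (limma, adjusted p = 0.0198), and Sdc4 at 0.28 did not pass (adjusted p = 0.138). Of 17 genes around netrin 2 fell and 0 rose, with a median of -0.11, and the counts were 2 and 0 without the 4 arrays as well. Ntng1, which encodes the membrane-tethered netrin-G1, fell by 0.66 ± 0.14 (SE) and the exchange factor gene Trio by 0.39 ± 0.13, while Elmo1 stood at -0.45 (limma, adjusted p = 0.071). Ntng1 also fell without the 4 arrays, by 0.72 (adjusted p = 0.0195), and Trio at -0.48 and Elmo1 at -0.07 did not pass (limma, adjusted p = 0.0909 and 0.797). Among 13 actin and microtubule effectors 5 fell and 0 rose, with a median of -0.09. Mapt, Map1b and Pfn2 fell by 1.29 ± 0.31, 2.45 ± 0.65 and 0.77 ± 0.21 (SE), and 0 of the 13 passed without the 4 arrays, where these 3 stood at -0.49, -0.67 and -0.27 (limma, adjusted p = 0.0648, 0.0891 and 0.279). Their list mean was 10.12 to 10.41 in the 4 arrays and 9.27 to 9.51 on the other 9. Of 34 other guidance cues and receptors 10 fell and 1 rose, with a median of -0.27, and 3 fell and 0 rose without the 4 arrays. Rgmb, a ligand of neogenin, fell by 0.73 ± 0.10 (SE), Bmp7 fell by 1.20 ± 0.22 and the adhesion gene Flrt3 fell by 0.996 ± 0.21. Rgmb and Bmp7 also fell without the 4 arrays (limma, adjusted p = 0.0211 and 0.019), and Flrt3 at -0.59 did not pass there (adjusted p = 0.11).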

How the data were processed

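RNA from sciatic nerve was amplified, biotin-labelled and hybridised to 1-colour arrays, 1 per sample, as the labels say. The authors' values are log2 levels from RMA, per the submitters' processing notes. Its version and the genome build of the probe sets were not given in the sources used here. RMA removes differences in total signal and compresses folds of dim genes, and there are no detection calls (15 members had a mean below the 25th percentile of all genes). Of 15479 probe sets 42 controls were left out. A table of probe sets and symbols named 14801 with 1 symbol and 636 with none, and all 58 member symbols were found in RefSeq. Array medians were 8.63 to 8.71, and pairs of arrays correlated at 0.894 to 0.989 across genes. The number of arrays limits the precision.

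db/db (6 arrays) was compared with db/+ (7 arrays) with limma 3.58.1 (lmFit, eBayes; R 4.3.3). Two-sided p-values were adjusted by Benjamini-Hochberg over 15437 genes, and the threshold was 0.05. Intervals are the fit's 95% intervals, unadjusted. The members, the division of the db/+ arrays, the marker and pathway lists and the tests were chosen with earlier results of these data known. Named were members called in either fit and members in which the 4 db/+ arrays stood apart. Also named were the member with the smallest p of each family, the 3 such genes of each pathway list, and Ntn4. Other members are given by their ranges. On simulated data of 6 against 7 arrays (15437 genes, 200 changed) the fit recovered 82% of changes of 1 in log2 units. It recovered 98% of changes of 2, and 8 of 188 calls were false. On the measured arrays 3867 genes were called. The rate of recovery or of false calls with so many changes, or with db/+ arrays in 2 sets, was not tested. The alternatives were other sets of arrays, leaving out each array, a block for the number series, other moderation, scaling, filters, weights, a threshold on size and an exact rank-sum test. Other calculations used Python 3.11.15, pandas 2.3.3, numpy 2.4.6 and matplotlib 3.10.9.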

Additional observations from a re-analysis of the deposited data

Results flagged for a closer look

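In 4 of 116 gene and group combinations of the members 1 array stood apart from the rest of its group by Dixon's test at the 95% level, where chance flags about 1 in 20. Sema3e in db/db 110 was 5.46, against 6.91 to 7.39 on the other db/db arrays. Efna1 in db/+ 101 was 8.44, against 7.84 to 8.08. Efna2 in db/+ 101 was 6.19, against 6.72 to 6.998. Efna5 in db/db 111 was 7.79, against 7.96 to 8.03. Without db/db 110 Sema3e passed with a lower adjusted p than over all arrays, and without db/+ 101 Efna1 kept its call.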

How the results depend on the processing

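No paired analysis was possible because the groups share no sample number. No member called over all arrays changed direction under any alternative. The count of genes called, 3867, became 1992 without db/+ 101, 103, 104 and 106, 1404 in arrays 404 to 411, 6525 with array weights and 1217 with a size of at least 1, and ran from 2893 to 4529 when 1 array was left out. The count of members called lower, 15 over all arrays, became 7 without the 4 arrays, where Sema3d, Sema4a and Sema5b were not among the 15. It became 9 when the number series was also blocked and 6 with a size of at least 1. For the arrays numbered 404 to 411 it was 2, of which Sema3a was not among the 15. The count ran from 10 to 17 when 1 array was left out. The count of members called higher, 2 over all arrays, became 7 with array weights and 0 with a size of at least 1. It was 1 without the 4 arrays, with or without the block, and in either number series. An intensity trend, renewed quantile normalization and the filter at the 25th percentile also gave 1. The filter removed Unc5b before the test, and all called members that it kept passed again. Without the 4 arrays and in arrays 404 to 411 the member was Plxna2, which was not among the 2. The count was 0 to 1 when 1 array was left out. Median centring and quantile normalization left 12 lower members each, as did the exact rank-sum test. The cause of these changes was not tested, except that fewer arrays, a size threshold or the filter can make fewer calls by construction.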
